A study of Mus musculus with 16 samples.

Results

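Hepatokines are proteins that the liver secretes into the blood and that act on other organs, the class to which FGL1 belongs. The 8 genes described here, *Fgf21*, *Gdf15*, *Inhbe*, *Inhbc*, *Ahsg*, *Fetub*, *Selenop* and *Lect2*, are the rows with these symbols among the 17003 genes of the deposited expression table, and all 8 were found. Livers came from 8 *Fgl1* LKO mice, which carry floxed *Fgl1* alleles and a CRE recombinase driven by the albumin promoter, so that *Fgl1* is deleted in hepatocytes, and from 8 *Fgl1* LWT littermates with the floxed alleles and no CRE. All 16 mice were males of 8 weeks on normal chow, and their labels call them fed. Whole liver RNA was sequenced, with 1 library per mouse. Mice are named here by genotype and replicate number, and values are FPKM (fragments per kilobase of transcript, scaled to library size), given as mean ± SD with n = 8 for each genotype. FPKM are scaled to transcript length, so that levels of different genes can be set side by side.

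FGF21 and GDF15 are hormones known to rise under cellular and nutritional stress. FGF21 acts through FGF receptors with the coreceptor beta-klotho on fat tissue and brain, and GDF15 acts on appetite through the receptor GFRAL in the hindbrain. *Inhbe* and *Inhbc* encode the beta E and beta C subunits of activins, dimeric ligands of the TGF-beta family. *Ahsg* encodes fetuin-A, an abundant plasma protein that keeps calcium phosphate from precipitating and inhibits the insulin receptor kinase, and *Fetub* encodes its relative fetuin-B, a protease inhibitor. *Selenop* encodes selenoprotein P, which carries selenium from the liver to other organs, and *Lect2* encodes leukocyte cell-derived chemotaxin 2, a target of beta-catenin in the liver.

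The members lie on 6 chromosomes in GRCm39, the assembly that mm39 names, and some are close neighbours. *Fgf21* (gene ID 56636) maps to chromosome 7, minus strand, at 45263301 to 45266963 and has 3 exons. *Gdf15* (23886) maps to chromosome 8, minus strand, at 71082038 to 71091537 and has 2 exons. *Inhbe* (16326) and *Inhbc* (16325) are adjacent on chromosome 10, both on the minus strand, at 127184726 to 127190280 and 127190888 to 127206430, with 607 bases between them. *Ahsg* (11625) maps to chromosome 16, plus strand, at 22710027 to 22718201, and *Fetub* (59083) follows after 17925 bases on the same strand at 22736127 to 22758528. *Selenop* (20363) maps to chromosome 15, plus strand, at 3298029 to 3313686. *Lect2* (16841) maps to chromosome 13, minus strand, at 56684477 to 56696569.

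RefSeq promoter windows, from 250 bases before to 50 after a gene's start, were at hand for all 8 members in the build GRCm38.p6, and they were searched on both strands for 3 short motifs known from the regulation of these genes. The stress factor ATF4 binds a composite element, searched as TGATGCAA, which was in the windows of *Fgf21* and *Inhbe* and in 1.03% of the 27025 genes with a window. Both are shown because the levels of *Fgf21* and *Inhbe* are set beside the stress response genes, the programme of ATF4, further on. Each is written along the gene's strand with the element, which reads in the opposite direction there, in capitals, and starts 139 bases before the *Fgf21* start and 181 bases before the *Inhbe* start (chr7:45615592-45615659 and chr10:127351992-127352059, minus strand).
Fgf21: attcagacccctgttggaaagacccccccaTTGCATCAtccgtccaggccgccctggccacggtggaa
Inhbe: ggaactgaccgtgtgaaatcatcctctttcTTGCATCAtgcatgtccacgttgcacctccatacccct
The element of TCF/LEF factors, through which beta-catenin acts, was searched as ATCAAAG and was found in *Lect2* among the members and in 4.29% of genes. It starts 32 bases before the *Lect2* start (chr13:56548534-56548600, minus strand) and is in capitals in the line shown here, which is referred to again beside the beta-catenin targets.
Lect2: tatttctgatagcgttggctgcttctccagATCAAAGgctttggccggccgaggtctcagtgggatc
The E-box CACGTG was in the windows of *Fgf21* and *Gdf15* and in 8.09% of genes. A match of letters is a description of these windows and not a bound site.

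In the libraries, 14116 to 14407 genes were above 0, and the FPKM summed to between 673153 and 786188 per mouse. Sequencing depth is unknown, and counting error can therefore not be stated. *Fgl1* lay between 157.8 and 1331 FPKM in *Fgl1* LWT and between 13.2 and 90.0 FPKM in *Fgl1* LKO mice, without overlap (exact permutation test of the means, two-sided, p = 0.000155, the smallest the 12870 splits can give). In limma its adjusted p was 0.0725, and no gene of 12770 passed 0.05. Among hepatocyte markers *Alb* had 44230 ± 9798 FPKM in *Fgl1* LWT and 39271 ± 5077 FPKM in *Fgl1* LKO livers. In whole tissue, fewer cells of a type and less RNA per cell cannot be told apart. Mouse numbers in the library names fall into 4 runs, 36 to 38, 48 to 55, 60 to 64 and 69 to 72, and the first holds 3 *Fgl1* LWT mice only. The sources do not say that a run is a batch.

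The 8 genes covered more than 3 orders of magnitude in level, from *Ahsg* at a mean of 8028 FPKM over all 16 mice to *Fgf21* at 2.30 FPKM. *Ahsg* ranked 15 and *Selenop*, at 2394 FPKM, ranked 43 among the 12770 genes kept. *Fetub* followed at 341.0 FPKM, then *Lect2* at 103.7, *Inhbc* at 41.7, *Inhbe* at 14.5 and *Gdf15* at 3.99 FPKM. The order of neighbours held in 16 of 16 mice for every step but the last, where *Gdf15* was above *Fgf21* in 13 of 16. The ranges over mice did not overlap down to *Inhbc*, and they overlapped from *Inhbc* to *Inhbe*, from *Inhbe* to *Gdf15* and from *Gdf15* to *Fgf21*.

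**Figure D1:**
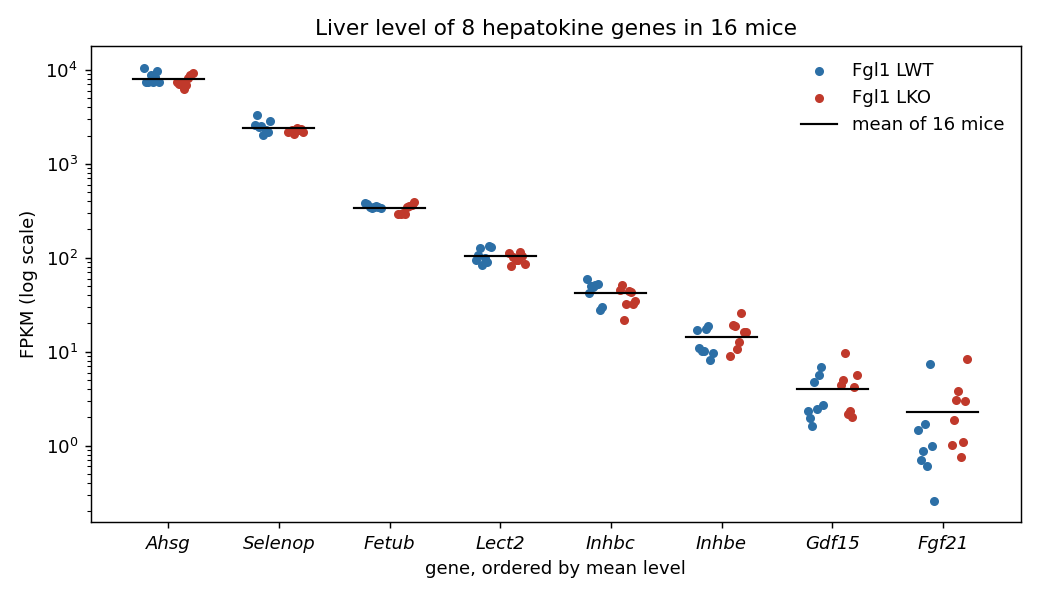
FPKM on a log scale of the 8 genes in each of 16 mice, with 1 point per mouse coloured by genotype and a line at the mean of all mice. The genes run from *Ahsg* at a mean of 8028 FPKM down to *Fgf21* at 2.30 FPKM, and the points of the genes of low level are spread more widely.

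The mice differed most in the stress hormones and least in the plasma proteins of high level. The coefficient of variation over the 16 mice was 103% for *Fgf21*, 55.6% for *Gdf15*, 34.4% for *Inhbe* and 25.4% for *Inhbc*, against 15.9% for *Lect2*, 14.6% for *Ahsg*, 13.5% for *Selenop* and 9.17% for *Fetub*. On the log2(FPKM + 1) scale, the residual SD within genotypes of *Fgf21* exceeded that of 99.1% of all genes kept, and that of *Gdf15* exceeded 98.0%. *Fetub* lay at the other end, above only 22.5% of genes. The lowest *Fgf21* values were close to the smallest the libraries hold for a gene of its length, and the highest were far above them. Among 124 genes with a transcript length within 10% of its 960 bases and a value of 0 in some mouse, the lowest value above 0 had a median of 0.09 FPKM, and the lowest *Fgf21* value was 2.89 times and the highest 92.3 times that. The lowest *Gdf15* value was 40.2 times the corresponding value for its length. The share of counting error in the spread of *Fgf21* was not tested.

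None of the 8 genes differed between genotypes past the threshold. In limma 0 of 8 members had an adjusted p under 0.05, as did 0.0% of the 12770 genes tested, and 0 of 8 had an unadjusted p under 0.05, against 7.01% of all genes. Exact permutation tests of the mean FPKM gave 0 of 8 with p under 0.05 too. On the log2(FPKM + 1) scale 3 members had a higher mean in *Fgl1* LKO livers and 5 a lower one, with a median log2 fold change of -0.11 (0.01 over all genes). The median size of the change was 0.20 for the members and 0.07 for all genes. These sets are not matched, since all genes reach down to a mean of 0.1 FPKM, where the added 1 shrinks log2 changes. The residual SD of *Fgf21*, *Gdf15*, *Inhbe* and *Inhbc* each exceeded that of 92.9% of genes or more. Whether the members changed more than genes of like level and spread was not tested. Values of the genotypes overlapped for all 8 members. The share of all genes that overlap, or that pass the exact test, was not worked out, so these counts have no background here.

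*Fgf21* was at 1.70 FPKM or less in every *Fgl1* LWT mouse but LWT 6. Values of *Fgl1* LKO mice were more graded, with 3.01, 3.03 and 3.77 FPKM below the highest. In *Fgl1* LWT mice the lowest value was 0.26, the median 0.935 and the highest 7.35 FPKM, and in *Fgl1* LKO mice 0.75, 2.44 and 8.31 FPKM. Single mice, LWT 6 and LKO 8, held the highest value of each genotype, and 7 of 8 *Fgl1* LKO mice lay above the *Fgl1* LWT median. The means were 1.74 ± 2.31 and 2.86 ± 2.47 FPKM, and the log2 fold change was 0.55 (SE 0.37, 95% interval -0.22 to 1.32, limma adjusted p = 0.736). The exact permutation test of the means gave p = 0.399, and the exact rank-sum test gave p = 0.083. LWT 6 and LKO 8 weigh on this value, which was 0.82 without LWT 6 (limma unadjusted p = 0.0135, adjusted p = 0.693) and 0.34 without LKO 8, and a pseudocount of 0.1 gave 0.91.

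*Gdf15* fell into lower and higher values in both genotypes, and no mouse lay between 2.68 and 4.20 FPKM. It ranged from 1.61 through a median of 2.58 to 6.95 FPKM in *Fgl1* LWT and from 2.04 through 4.34 to 9.61 FPKM in *Fgl1* LKO mice, of which LKO 3 was the highest. The means were 3.55 ± 1.96 and 4.43 ± 2.50 FPKM, with a log2 fold change of 0.24 (SE 0.27, 95% interval -0.33 to 0.82, limma adjusted p = 0.834). The exact permutation test gave p = 0.465. This direction turned to -0.13 when the run of mouse numbers was put in the model and to -0.07 when the first run was left out, whose 3 mice had 1.61, 1.95 and 2.34 FPKM, the lowest *Gdf15* values of all *Fgl1* LWT mice. Single mice moved the value too, to 0.09 without LKO 3, 0.14 without LWT 3 and 0.37 without LWT 7.

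**Figure D2:**
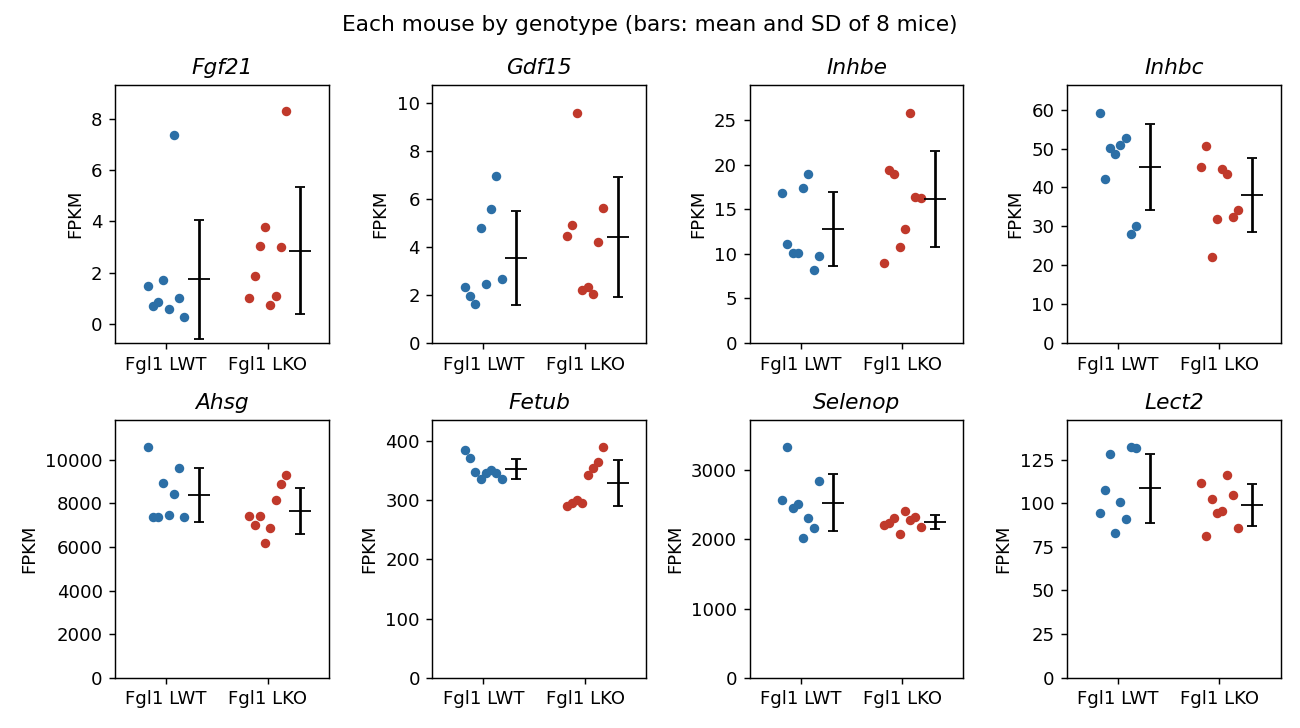
FPKM of each gene in 8 *Fgl1* LWT and 8 *Fgl1* LKO mice, 1 point per mouse, with bars for the mean and SD. The genotypes overlap in every panel, and single mice at 7.35 FPKM (LWT 6) and 8.31 FPKM (LKO 8) stand above the others for *Fgf21*.

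The adjacent activin genes differed in opposite directions, neither past the threshold. *Inhbe* ranged from 8.22 through 10.6 to 18.9 FPKM in *Fgl1* LWT and from 8.95 through 16.3 to 25.9 FPKM in *Fgl1* LKO livers, with 7 of 8 *Fgl1* LKO mice above the *Fgl1* LWT median. Its log2 fold change was 0.31 (SE 0.20, 95% interval -0.12 to 0.73, limma adjusted p = 0.731; exact p = 0.174). *Inhbc* ranged from 28.1 through 49.4 to 59.3 FPKM in *Fgl1* LWT and from 21.98 through 38.8 to 50.8 FPKM in *Fgl1* LKO livers, with 7 of 8 *Fgl1* LKO mice below the *Fgl1* LWT median. Its log2 fold change was -0.24 (SE 0.17, 95% interval -0.61 to 0.12, limma adjusted p = 0.762; exact p = 0.183). The lowest *Inhbc* value was that of LKO 3, which was also the mouse with the highest *Gdf15*. Without LKO 3 the log2 fold change of *Inhbc* was -0.14, and without the first run it was -0.13.

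Both fetuin genes had a slightly lower mean in *Fgl1* LKO livers, a difference within the spread between mice. *Ahsg* had a lowest value of 7364, a median of 7942 and a highest value of 10576 FPKM in *Fgl1* LWT and of 6182, 7426 and 9305 FPKM in *Fgl1* LKO mice, with a log2 fold change of -0.13 (SE 0.11, 95% interval -0.37 to 0.11, limma adjusted p = 0.79; exact p = 0.225), which was -0.08 without LWT 1, the highest mouse. *Fetub* had 335.4, 347.2 and 384.5 FPKM in *Fgl1* LWT and 290.2, 322.1 and 389.7 FPKM in *Fgl1* LKO mice, with a log2 fold change of -0.11 (SE 0.07, 95% interval -0.25 to 0.04, limma adjusted p = 0.736; exact p = 0.138). Its SD was 17.1 FPKM in *Fgl1* LWT and 38.6 FPKM in *Fgl1* LKO mice. In the latter LKO 1 to LKO 4 lay between 290.2 and 301.1 FPKM, below every *Fgl1* LWT mouse, and the other 4 at 343.1 FPKM or more. The difference in spread was not tested.

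*Selenop* had the smallest p of the members in the exact permutation test of the means, though not in the exact rank-sum test (p = 0.13). It ranged from 2027 through 2490 to 3334 FPKM in *Fgl1* LWT and from 2080 through 2265 to 2416 FPKM in *Fgl1* LKO mice, all 8 of which lay below the *Fgl1* LWT median. The means were 2532 ± 411 and 2256 ± 103 FPKM (exact permutation test, two-sided, p = 0.0749), and the log2 fold change was -0.15 (SE 0.09, 95% interval -0.34 to 0.04, limma adjusted p = 0.718). The highest value was that of LWT 2, the library with the lowest FPKM sum and the highest median-ratio size factor, 1.07, and the log2 fold change was -0.09 without LWT 2 and -0.17 under median-ratio scaling. The wide spread was in *Fgl1* LWT, where values reached below those of every *Fgl1* LKO mouse as well as above them.

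*Lect2* ranged from 82.8 through 103.9 to 132.0 FPKM in *Fgl1* LWT and from 81.3 through 98.9 to 116.0 FPKM in *Fgl1* LKO mice. Its log2 fold change was -0.12 (SE 0.11, 95% interval -0.34 to 0.10, limma adjusted p = 0.795; exact p = 0.258). In 3 *Fgl1* LWT mice, LWT 3, LWT 7 and LWT 8, it was above every *Fgl1* LKO mouse, and the log2 fold change was -0.08 without LWT 7 and -0.08 without LWT 8.

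**Figure D3:**
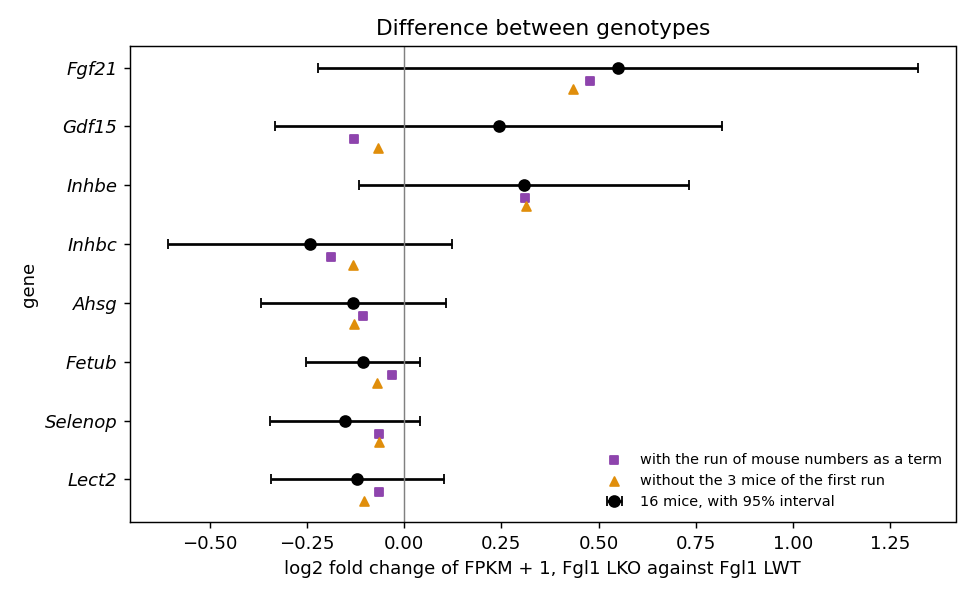
Log2 fold change of FPKM + 1 of each gene, *Fgl1* LKO against *Fgl1* LWT, as points with 95% intervals, beside the value with the run of mouse numbers in the model (squares) and the value with the 3 mice of the first run left out (triangles). All 8 intervals include 0, and *Gdf15* moves from 0.24 to -0.13 and -0.07.

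The log2 fold changes of most members moved when the run of mouse numbers was put in the model. The first run holds *Fgl1* LWT mice only, so that run and genotype cannot be fully told apart. With the run in the model, *Fetub* had a log2 fold change of -0.03, *Selenop* of -0.06 and *Lect2* of -0.06. *Fgf21* had 0.48, *Inhbc* -0.19 and *Ahsg* -0.11, and all of these were nearer 0 than without the run. *Inhbe* stayed at 0.31. With the first run left out instead, *Selenop* and *Fetub* had -0.07 each and *Inhbc* -0.13. *Selenop* averaged 2791 FPKM in the 3 mice of the first run, with 3334 FPKM in LWT 2 but 2578 in LWT 1 and 2462 in LWT 3. In the *Fgl1* LWT mice of the other runs it averaged 2517 (1 mouse), 2171 and 2510 FPKM. *Inhbc* was between 28.1 and 34.2 FPKM in all 4 mice of the last run, of both genotypes. Within the 3 runs that hold both genotypes, *Fgf21* differed by 0.08, -0.49 and 1.94 on the log2 scale and *Inhbe* by 0.52, -0.22 and 0.79, so that no member had the same direction in every run. Each of these runs holds 1 or 2 *Fgl1* LWT mice, which is too few for a test within a run, and the part of the run in the result was not tested.

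**Figure D4:**
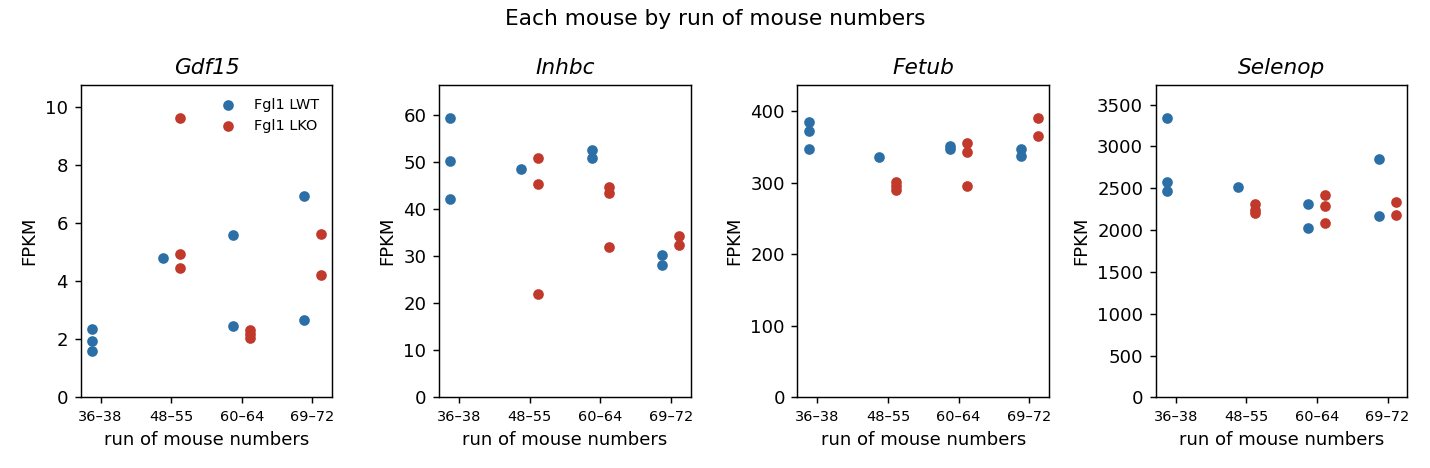
FPKM of *Gdf15*, *Inhbc*, *Fetub* and *Selenop* in each mouse by run of mouse numbers, coloured by genotype. The first run holds *Fgl1* LWT mice only, with *Gdf15* between 1.61 and 2.34 FPKM, and *Inhbc* is between 28.1 and 34.2 FPKM in the last run.

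Genes around the members' pathways were grouped in lists, and no gene of these lists passed the adjusted threshold in limma. Directions are those of the mean log2(FPKM + 1), and over all genes kept 55.8% had a higher mean in *Fgl1* LKO livers and 7.01% an unadjusted p under 0.05. The lists are set against these shares as a description. Of the FGF21 and GDF15 receptors, 5 genes were kept, with 4 higher and 1 lower on the log2 scale and 0 with an unadjusted p under 0.05. The differences were close to 0, with a median log2 fold change of 0.01. *Klb*, which encodes beta-klotho, had 9.58 ± 2.80 FPKM in *Fgl1* LWT and 9.41 ± 1.79 FPKM in *Fgl1* LKO livers (0.00 on the log2 scale, SE 0.15). *Gfral* was not among the genes of the deposited data under that symbol, so it has no value here. Of 17 genes of the integrated stress response, the programme of ATF4, 15 had a higher and 2 a lower mean, with a median log2 fold change of 0.13. In limma 1 had an unadjusted p under 0.05 upward, *Atf5* (0.22, SE 0.08, adjusted p = 0.696), a transcription factor of this response, and 1 downward, *Nupr1* (-0.36, SE 0.17, adjusted p = 0.696), a stress-induced nuclear protein. *Atf4* itself was at 71.1 ± 8.12 and 68.3 ± 11.4 FPKM.

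PPARA and CREB3L3, factors of the fasting response, and the carbohydrate response also regulate *Fgf21*. Of 14 genes of the PPARA and CREB3L3 programme, 13 had a higher mean in *Fgl1* LKO livers, 1 of them with an unadjusted p under 0.05, *Plin2*, which coats lipid droplets (158.0 ± 39.6 against 216.2 ± 70.6 FPKM, limma adjusted p = 0.696). The mean log2(FPKM + 1) of these 14 genes was 5.47 to 5.74 in LWT 1 to LWT 3, above every *Fgl1* LKO mouse (4.83 to 5.43). It was 5.19 in LWT 4 and 4.04 to 4.54 in LWT 5 to LWT 8, below every *Fgl1* LKO mouse. Of 14 genes of carbohydrate response and lipogenesis, 11 had a higher mean and 0 an unadjusted p under 0.05, with *Scd1*, a fatty acid desaturase, at 1499 ± 686 and 2069 ± 1377 FPKM.

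Of 17 genes of the activin pathway, 9 had a higher and 8 a lower mean and 0 an unadjusted p under 0.05. *Inhba*, which encodes the beta A subunit, was at 2.46 ± 0.79 and 2.35 ± 0.84 FPKM and *Inhbb* at 0.39 ± 0.15 and 0.63 ± 0.44 FPKM, so that *Inhbc* and *Inhbe* were the beta subunits of highest level in these livers.

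Of 19 other selenoprotein genes, 5 had a higher and 14 a lower mean. *Txnrd1*, which encodes a thioredoxin reductase, had an unadjusted p under 0.05 upward (38.1 ± 3.13 against 48.0 ± 12.5 FPKM, limma adjusted p = 0.696). *Gpx1*, a glutathione peroxidase that needs selenium, had 1927 ± 250 and 1868 ± 192 FPKM. Of 9 genes of selenium handling and selenocysteine insertion, 4 had a higher and 5 a lower mean, with 1 unadjusted p under 0.05, that of *Secisbp2l* (0.22, SE 0.08, limma adjusted p = 0.696).

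*Ahsg* and *Fetub* belong to the cystatin superfamily, and their locus continues with *Hrg*, *Kng2* and *Kng1*, which encode histidine-rich glycoprotein and kininogens. The 5 genes span 190814 bases of chromosome 16, and all 5 had a lower mean in *Fgl1* LKO livers. *Hrg* had 657.7 ± 93.2 and 568.5 ± 78.6 FPKM (log2 fold change -0.21, SE 0.10), *Kng2* 178.4 ± 28.4 and 154.4 ± 18.5 FPKM (-0.20, SE 0.10) and *Kng1* 1307 ± 258 and 1133 ± 125 FPKM (-0.19, SE 0.11). The limma adjusted p was 0.696, 0.696 and 0.707. *Kng1* and *Kng2* are near-identical copies whose reads the counting could have shared. Over the 16 mice, the 10 pairs of these 5 genes had Pearson r from -0.07 (*Ahsg* with *Hrg*) to 0.89 (*Kng2* with *Kng1*), as a description over genes of 1 library each.

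Of 16 genes of LECT2 receptors and beta-catenin targets, 11 had a higher and 5 a lower mean, and *Sp5*, a beta-catenin target, had an unadjusted p under 0.05 upward at a low level (0.51 ± 0.11 against 0.68 ± 0.20 FPKM, limma adjusted p = 0.696). *Glul*, the glutamine synthetase of hepatocytes around the central vein, had 387.2 ± 54.8 and 422.2 ± 75.1 FPKM. *Cyp2e1*, the gene of highest level in this list, went the other way, with 3101 ± 601 and 2703 ± 679 FPKM (log2 fold change -0.21, SE 0.15).

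Across mice, 28 pairs of members were compared after the genotype means were removed, and 0 passed an adjusted p of 0.05, by Pearson or by Spearman. *Ahsg* and *Fetub*, the neighbours on chromosome 16, had the highest correlation, with r = 0.61 (permutation within genotypes, two-sided, p = 0.0128, adjusted p = 0.358) and rho = 0.53 (permutation p = 0.0338). It was 0.37 in *Fgl1* LWT and 0.79 in *Fgl1* LKO mice, and 0.40 without LWT 1 and LKO 8. With the run also removed it was 0.73 (permutation p = 0.0034, adjusted p = 0.0955), and rho was 0.81 (adjusted p = 0.035). *Fgf21* and *Lect2* had the lowest, with r = -0.53 (permutation p = 0.0335, adjusted p = 0.468), rho = -0.47 (permutation p = 0.0637) and r = -0.41 without LWT 6 and LKO 8. With the run also removed it was -0.64 (permutation p = 0.0225, adjusted p = 0.21).

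The mice with most *Fgf21*, LWT 6 and LKO 8, had 5.58 and 5.63 FPKM of *Gdf15*, the second highest *Gdf15* of each genotype. *Fgf21* and *Gdf15* had r = 0.47 (permutation p = 0.0737, adjusted p = 0.551) and rho = 0.49 (permutation p = 0.0704), with r = 0.34 without LWT 6 and LKO 8. With the run also removed, r was 0.68 (permutation p = 0.018, adjusted p = 0.21). *Fgf21* and *Inhbe*, whose promoter windows both hold the ATF4 element shown at the outset, had r = 0.29 (permutation p = 0.292) and rho = 0.20 (permutation p = 0.465), with r = 0.05 without those mice. *Inhbe* and *Inhbc* had r = 0.31 (permutation p = 0.262) and rho = 0.36 (permutation p = 0.181), with r = 0.74 in *Fgl1* LWT and -0.08 in *Fgl1* LKO mice, and the difference between genotypes was not tested.

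**Figure D5:**
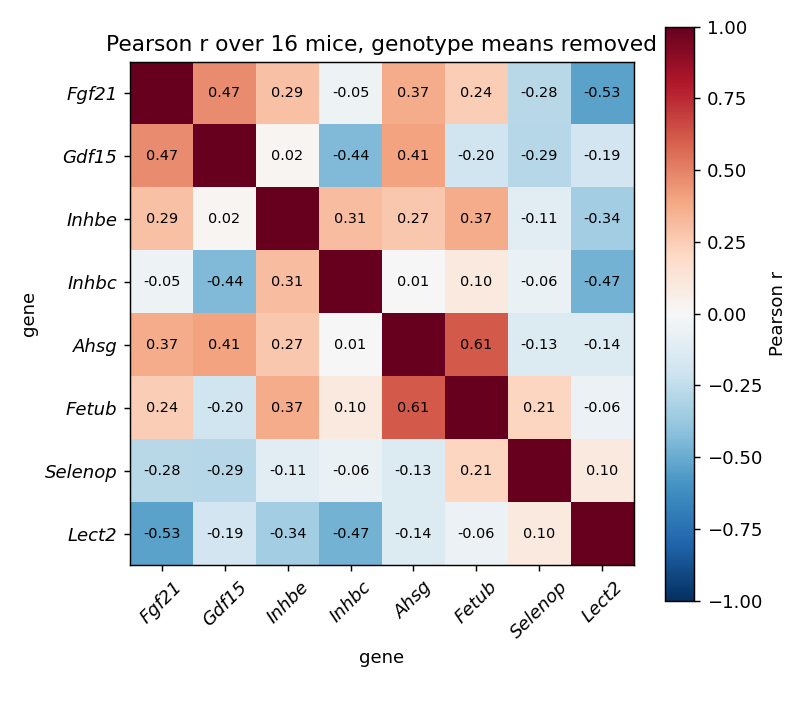
Pearson r of log2(FPKM + 1) for the 28 pairs of genes over 16 mice after the genotype means were removed, written in each square and coloured from -1 to 1. The highest is 0.61 for *Ahsg* with *Fetub* and the lowest -0.53 for *Fgf21* with *Lect2*, and 0 pairs passed the adjusted threshold.

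The members were also set against the mean level of 4 lists over the mice, 32 relations in all, of which 0 passed the adjusted threshold by Pearson or Spearman. *Selenop* and the integrated stress response had r = -0.56 (permutation p = 0.00416, adjusted p = 0.133) and rho = -0.67 (permutation p = 0.00709). Without LKO 6 and LKO 8, the mice farthest from the median of the list, r was -0.77, and with the run also removed it was -0.61. Under median-ratio scaling it was -0.41 (permutation p = 0.0797), with -0.79 in *Fgl1* LWT and 0.05 in *Fgl1* LKO mice. *Fetub* and carbohydrate response and lipogenesis had r = -0.60 (permutation p = 0.0298, adjusted p = 0.477), rho = -0.64 (permutation p = 0.0251) and r = -0.47 without LKO 3 and LKO 4, the mice farthest from the median of that list. With the run also removed, r was -0.46 (permutation p = 0.148) and rho -0.21 (permutation p = 0.497), while under median-ratio scaling r was -0.63 (adjusted p = 0.434) and rho -0.76 (adjusted p = 0.0429). *Selenop* and the same list had r = -0.33 (permutation p = 0.155) and rho = -0.48 (permutation p = 0.0505, adjusted p = 0.539). With the run also removed rho was -0.29 (permutation p = 0.292), and under median-ratio scaling rho was -0.78 (adjusted p = 0.008) and r -0.48 (adjusted p = 0.434). *Fgf21* and the integrated stress response had r = 0.47 (permutation p = 0.0802, adjusted p = 0.584) and rho = 0.28 (permutation p = 0.315), and r was 0.12 without LKO 6 and LKO 8. *Inhbe* and the same list had r = -0.29 (permutation p = 0.297) and rho = -0.32 (permutation p = 0.233), with r = -0.24 without those mice. With the PPARA and CREB3L3 programme *Fgf21* had r = -0.04 (permutation p = 0.919), and with carbohydrate response and lipogenesis r = 0.20 (permutation p = 0.486). The largest r of the 32 was that of *Selenop* with the PPARA and CREB3L3 programme, 0.64 (permutation p = 0.0536, adjusted p = 0.571). It was 0.35 without LWT 2 and LWT 7. Gene by gene, *Fgf21* had r above 0 with 13 of the 17 stress genes, from -0.51 with *Ddit3*, the transcription factor CHOP, to 0.77 with *Phgdh*, an enzyme of serine synthesis. The count was 8 of 17 for *Gdf15*, 6 of 17 for *Inhbe* and 4 of 17 for *Selenop*. Among 10036 genes averaging 1 FPKM or more, the share with r above 0 was 57.9% for *Fgf21*, 50.0% for *Gdf15*, 54.9% for *Inhbe* and 57.4% for *Selenop*.

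Acute-phase genes, which the liver raises in inflammation, differed widely between mice, and *Saa1*, which encodes serum amyloid A, lay between 63.8 and 16268 FPKM. *Ahsg*, known as a plasma protein that falls in inflammation, had r = 0.10 (permutation p = 0.731) and rho = 0.17 (permutation p = 0.546) with the acute-phase list. *Selenop* had r = -0.49 (permutation p = 0.106) and rho = -0.29 (permutation p = 0.301), and r was -0.08 without LWT 5 and LWT 7, the mice with the highest *Saa1*. In the 8 *Fgl1* LWT mice, the members were compared with *Fgl1* itself, and 0 of 8 relations passed the adjusted threshold. *Gdf15* had the highest rho, 0.76 (exact permutation test over 40320 pairings, p = 0.0368, adjusted p = 0.294), with r = 0.54 (exact p = 0.17) and r = 0.57 without LWT 5 and LWT 7, and *Selenop* had r = -0.63 (exact p = 0.0921) and rho = -0.52 (exact p = 0.197), with r = -0.06 without them.

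Among the 10036 genes that averaged 1 FPKM or more, those that varied most like each member over the 16 mice are given with their Pearson r, as a description. For *Fgf21* they were *Mmadhc* (0.86), *Bax* (0.85) and *Ppp2r1a* (0.82), and for *Gdf15* they were *Wfdc1* (0.83), *Ptgs1* (0.82) and *Ms4a6c* (0.81). *Inhbe* was followed by *Tinf2* (0.81), *Bsdc1* (0.80) and *Alkbh4* (0.78), and *Inhbc* by *B4galt3* (0.89), *Alas1* (0.87) and *Tpcn1* (0.87). *Ahsg* was followed by *Midn* (0.87), *2310033P09Rik* (0.86) and *H2-T23* (0.85), *Fetub* by *Slc35d1* (0.89), *Chd3* (0.86) and *Gss* (0.85), and *Selenop* by *Trpm7* (0.91), *Dek* (0.90) and *Strbp* (0.88). *Selenop* had r above 0.8 with 67 genes and *Lect2* with 0.

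*Lect2* was followed by *Limd2* (0.80), *Cdkn2c* (0.75) and *Oat* (0.75). *Oat* encodes ornithine aminotransferase, a beta-catenin target of hepatocytes around the central vein, and is in the list of beta-catenin targets, and the *Lect2* promoter line shown at the outset holds the TCF/LEF letters. After this was seen, *Lect2* was set against the other 15 genes of the list, receptors included, and r was above 0 with 11 of them, where 39.2% of all 10036 genes had r above 0 with *Lect2*. This is a description, since *Oat* prompted it. It was 0.71 with *Sp5*, 0.51 with *Rhbg*, an ammonium transporter, 0.44 with *Glul* and 0.35 with *Cyp2e1*, and it was -0.64 with *Ctnnb1*, the gene of beta-catenin itself, -0.45 with *Tie1* and -0.24 with *Cd209a*, both in the list as receptors, and -0.12 with *Znrf3*. *Oat* ranged from 133.4 to 492.3 FPKM and was highest in LKO 6, the *Fgl1* LKO mouse with the highest *Lect2*.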

How the data were processed

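Whole liver RNA of 16 mice was sequenced as strand-specific poly(A) libraries, and the authors deposited 1 table of FPKM for 17003 genes with 2 decimals. Clean reads of 150 bases had been aligned with HISAT (mm39) and Bowtie2 (reference genes), and the versions, the counting step and the annotation are not given in the sources used here. Mice were grouped by labelled genotype. Genes averaging 0.1 FPKM or more were kept (12770), 1 was added and log2 was taken, and genotypes were compared with limma (version 3.58.1, R 4.3.3, intensity trend), two-sided, with p-values adjusted over all genes after Benjamini and Hochberg and a threshold of 0.05. The step was tested on simulated data. FPKM are not counts, so no count test was run. Single genes were compared with exact permutation tests of mean FPKM, and correlations with 100000 permutations within genotypes (Python 3.11.15, numpy 2.4.6, scipy 1.17.1, pandas 2.3.3). Because library sizes are unknown, precision rests on the spread between mice. Positions are from GENCODE vM39. Other scalings, filters, pseudocounts, a replicate block, a run effect and leaving out mice were tried.

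The members and gene lists were chosen with earlier results of these data known. Named are all members and, of each list, genes with an unadjusted p under 0.05 and some of highest level. *Inhba*, *Inhbb*, *Rhbg*, *Ctnnb1*, *Tie1*, *Cd209a*, *Znrf3*, *Ddit3*, *Phgdh* and *Saa1* were named after their values were seen.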

Additional observations from a re-analysis of the deposited data

Results flagged for a closer look

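*Fgf21* in the mouse LWT 6 stood apart from the other *Fgl1* LWT mice, at 7.35 FPKM with the next highest at 1.70 FPKM. On the log2(FPKM + 1) scale the gap was 0.597 of the whole range of the 8 mice, above Dixon's critical value at 95% for 8 mice. Of 18 groups searched (8 members and *Fgl1* in each genotype) 1 was found, where chance gives about 0.9. The same mouse had the highest *Inhbe* of its genotype, 18.9 FPKM, and 5.58 FPKM of *Gdf15*.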

How the results depend on the processing

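Of 25 alternative fits, 16 of which left out 1 mouse each, none brought a member past the adjusted threshold (0 of 8 in each), and the lowest adjusted p of a member was 0.514. Of 200 refitted log2 fold changes 198 kept their sign. The exceptions were *Gdf15*, at -0.129 with the run in the model and -0.0657 when the first run was left out, and the cause was not tested. Over all genes, *Fgl1* alone passed (1 gene) with equal FPKM sums, with the replicate block, with the run in the model and with the first run left out. Leaving out single mice gave *Fgf21* 0.34 to 0.82, *Gdf15* 0.09 to 0.37, *Ahsg* and *Lect2* both -0.17 to -0.08, *Inhbe* 0.21 to 0.41, *Inhbc* -0.33 to -0.14, *Selenop* -0.20 to -0.09 and *Fetub* -0.14 to -0.08, with unadjusted p under 0.05 for *Inhbe* without LKO 1 (0.0462), *Fetub* without LKO 8 (0.0457) and *Selenop* without LWT 5 (0.0415), besides *Fgf21*. Of the genes with an unadjusted p under 0.05, 66.3% had a higher mean in *Fgl1* LKO, and 47.4% under median-ratio scaling.

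Replicate numbers are shared between genotypes, but only 3 of 8 same-numbered pairs had deviations correlated above 0.1 (-0.161 to 0.446). Of 8 mice, 2 correlated best with their own number. These counts show no clear pairing by number but are too few to exclude it. With the block 0 members and 1 gene, *Fgl1*, passed.

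The exact rank-sum test called 0 members. By Spearman, 1 pair of members passed with the run removed and 2 relations with lists under median-ratio scaling, all named in the results, and by Pearson 0 in every alternative. Sequencing depth is unknown, and how far it limits each member was not tested.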

Other observations

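Other secreted liver proteins were measured in the same mice. Of 20 other hepatokine genes kept, 6 had a higher and 14 a lower mean in *Fgl1* LKO livers. The 14 include the deleted gene, *Fgl1*, itself. Beside *Fgl1* 1 had an unadjusted p under 0.05, *Tsku*, which encodes tsukushi (23.7 ± 19.4 against 33.9 ± 10.96 FPKM, limma adjusted p = 0.696, exact permutation p = 0.222). Of 9 negative acute-phase genes, which fall in inflammation, 7 had a lower mean, and *Serpina6*, which encodes the corticosteroid carrier of plasma, was at 106.0 ± 25.1 and 73.7 ± 12.6 FPKM (log2 fold change -0.50, SE 0.13, limma adjusted p = 0.66, exact permutation p = 0.00326). Of 20 acute-phase genes, 14 had a higher mean and 0 an unadjusted p under 0.05. Over all genes kept 55.8% had a higher mean and 7.01% an unadjusted p under 0.05.

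All 8 markers of Kupffer cells and macrophages had a higher mean in *Fgl1* LKO livers, with a median log2 fold change of 0.25, and *Adgre1* and *Vsig4* had an unadjusted p under 0.05 (limma adjusted p = 0.696 for each). Their summed level was 80.5 to 166.1 FPKM in *Fgl1* LWT and 108.0 to 209.9 FPKM in *Fgl1* LKO mice. A higher mean was also found for 5 of 5 cholangiocyte, 7 of 8 stellate cell, 6 of 8 sinusoidal endothelial and 2 of 2 adipocyte markers. The count was 2 of 3 for neutrophil, 2 of 5 for erythroid, 1 of 3 for lymphocyte and 0 of 1 for pancreatic acinar markers. Over all genes kept, 55.8% had a higher mean and 7.01% an unadjusted p under 0.05. Of the 8 hepatocyte markers, 3 had a higher and 5 a lower mean. The part of any cell type in the members' levels was not tested.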
